A study of Mus musculus with 35 samples.

Results

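The 10 genes described here encode alpha subunits of heterotrimeric G proteins: Gnai1, Gnai2, Gnai3, Gnao1, Gnaz, Gnas, Gnaq, Gna11, Gna12 and Gna13. They were taken by gene symbol from a table of 54393 genes, and 9 of the 10 also had a row in the table of 9239 genes with read counts. Gnai2 was chosen because its mRNA fell strongly on knockdown of Chtop, so its knockdown values are a description. Its knockdown differences within a fraction carry no test, and tests of Gnai2 that reuse those libraries are not independent of the choice. The other 9 were added as its relatives.

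Heterotrimeric G proteins carry signals from membrane-spanning receptors to enzymes and channels inside the cell. The alpha subunit binds GDP at rest and GTP when a receptor activates it, and is then released from a beta and gamma pair. The Gi and Go subunits (Gnai1, Gnai2, Gnai3, Gnao1) restrain adenylyl cyclase or act through the released beta and gamma pair. Gz (Gnaz) also restrains cyclase but lacks the cysteine that pertussis toxin modifies in Gi and Go. Gs (Gnas) activates adenylyl cyclase, and Gq and G11 (Gnaq, Gna11) activate phospholipase C beta. G12 and G13 (Gna12, Gna13) form a class of their own. Go is an abundant G protein of neurons.

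The cells were N2a Flp-In rtTA, a mouse neuroblastoma line in which doxycycline switches on an inserted gene. In the mEx5 line the insert was a FLAG-tagged Chtop cDNA without exon 5, and in the pEx5 line the same cDNA with exon 5. Chtop is a chromatin-bound and RNA-binding protein that takes part in mRNA export. There were 3 conditions in each line: rescue (the Chtop siRNA with doxycycline, and a cDNA that the siRNA does not target), knockdown (the same Chtop siRNA, D-063383-02, without doxycycline) and control (a non-targeting siRNA pool without doxycycline). Both lines in every condition carried the inserted cDNA, medium was changed 24 h after transfection and cells were harvested at 72 h. No library had the control siRNA with doxycycline, so the cDNA and doxycycline cannot be told apart from each other in the rescue. Knockdown rested on 1 siRNA, and control on a pool of others. Poly(A) RNA was taken from total lysate, nuclei and cytoplasm in 2 biological replicates, which gave 35 libraries in 18 groups, since the cytoplasmic pEx5 control had 1 library. Wells of a condition were combined before extraction, and the labels do not say more on how the biological replicates were separated.

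Summed counts per library ran between 20652832 and 36102129 for total lysate. Nuclear libraries held between 11681781 and 28705620 counts, and cytoplasmic ones between 19478702 and 40105458. Chtop averaged 223 CPM (counts scaled to the summed counts of a library) in rescue, 27.2 in knockdown and 134 in control lysates. In nuclei it averaged 260 CPM in rescue, 62.3 in knockdown and 114 in control. In cytoplasm it averaged 188 CPM in rescue, 23.9 in knockdown and 140 in control. The fall of Chtop on knockdown was thus smaller in nuclei than in lysates or cytoplasm. Its part in differences between the fractions was not tested. Counts did not separate the inserted cDNA from the cells' own gene. Of 13 neuroblastoma markers, 9 averaged at least 1 RPKM (reads scaled to transcript length and library depth), against 4 of 12 markers of other cell types, of which 1 was at 0 in every library. The summed level of the other-type markers ran from 6.01 to 64.5 RPKM in rescue, 5.1 to 58.9 in knockdown and 7.12 to 38.6 in control libraries. The share of counts from mitochondrial genes was 3.52 to 4.97% in rescue lysates, 3.39 to 4.84% in knockdown lysates and 2.45 to 3.51% in control lysates, and the part of this difference in the results was not tested.

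In the mouse genome (mm10), Gnai2 (ENSMUSG00000032562.13) spans chr9:107614125-107635367 on the minus strand, Gnai3 (ENSMUSG00000000001.4) chr3:108107280-108146146 on the minus strand, and Gnas (ENSMUSG00000027523.19) chr2:174284320-174346744 on the plus strand. Among them Gnai2 and its nearest relatives are similar enough that a reader may ask whether reads can be told apart. Their last 60 coding bases before the stop codon encode the tail that contacts receptors and are shown for this reason, from GENCODE M21 transcripts on mm10, with capitals where a base differs from Gnai2:
Gnai2: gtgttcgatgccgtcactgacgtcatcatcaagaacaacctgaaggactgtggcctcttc
Gnai3: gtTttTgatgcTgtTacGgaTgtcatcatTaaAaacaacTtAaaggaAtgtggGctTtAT
Gnai1: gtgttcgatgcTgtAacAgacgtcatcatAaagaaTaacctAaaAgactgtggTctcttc
Gnao1: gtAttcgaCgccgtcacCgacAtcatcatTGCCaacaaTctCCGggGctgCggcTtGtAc
Gnaz: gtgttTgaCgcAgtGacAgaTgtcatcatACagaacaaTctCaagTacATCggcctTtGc

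In this stretch Gnai1 differed from Gnai2 at 8 of 60 bases, Gnai3 at 15, Gnaz at 16 and Gnao1 at 17. Over the whole coding sequence, Gnai1 had 78.5% of bases identical to Gnai2, Gnai3 73.6%, Gnao1 69.3% and Gnaz 68.9%, and the members of the other classes between 53.0% (Gna13) and 61.9% (Gna11). Of the 31-base words in a member's transcripts, between 0% and 0.443% occurred in any other member, so few words of that length are shared among these genes. The counting was done on transcripts with Salmon, per the submitters' processing notes, and no strand setting was named there. By whole gene spans, Gnas overlaps the antisense gene Nespas (mean 2.21 RPKM) and Gm20721 on the opposite strand (mean 2.08 RPKM). On its own strand it overlaps Gm27869 (mean 2.96 RPKM) and Gm27849 (mean 2.77 RPKM), among others. Gna12 overlaps Amz1 on the opposite strand (mean 1.60 RPKM). Whether these partners share transcript sequence with the member was not examined, so it is not known whether their reads could be confused. Each of these partners was low beside its member.

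Per transcript length, Gnas was by far the highest of the 10 genes in control lysates. Its gene-level value covers 24 annotated transcripts, so the part that is Gs mRNA is not known. Gnas averaged 1436 ± 228 RPKM (SD, n = 4), Gnai2 137 ± 3.50, Gnao1 80.8 ± 4.45, Gnai3 47.6 ± 3.48, Gna13 47.2 ± 3.17, Gna12 41.6 ± 2.01, Gna11 38.5 ± 0.955, Gnaz 18.0 ± 1.61 and Gnaq 14.5 ± 0.853. The ranges of Gnai3 and Gna13, of Gna13 and Gna12, and of Gna12 and Gna11 overlapped, so the order among these 4 is not settled, and no other neighbours in this order overlapped. Gnai1 was listed at 0 RPKM in each of the 35 libraries and had no count row. Of 6 other alpha genes, Gnat2 averaged 3.42 RPKM and the others under 1 RPKM. Among the 3 Gi genes of control lysates, Gnai2 was thus the highest per length and Gnai3 the next.

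**Figure D1:**
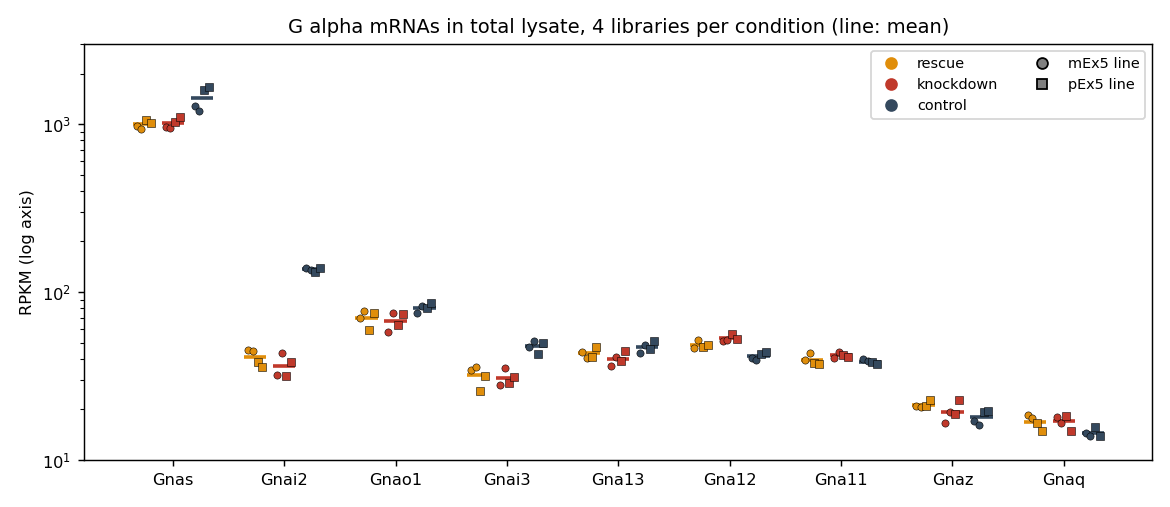
Level of 9 alpha subunit mRNAs in total lysate in RPKM on a log axis, with 1 point per library (circles mEx5 line, squares pEx5 line) and a line at the mean of the 4 libraries of each condition (rescue, knockdown, control from left to right). Gnas lies at 934 RPKM or more in every library, the Gnai2 control points at 132 to 140 RPKM stand clear of those of rescue and knockdown, and Gnai1 (0 RPKM throughout) is not drawn.

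Gnai2 was the subunit with the deepest fall on knockdown, and adding Chtop back left it low. In total lysate Gnai2 had 85.0 and 86.4 CPM in the mEx5 rescue and 70.0 and 69.9 CPM in the pEx5 rescue. Knockdown lysates had 58.9 and 82.4 CPM in the mEx5 line and 58.5 and 73.6 CPM in the pEx5 line. Control lysates had 245 and 244 CPM in the mEx5 line and 238 and 251 CPM in the pEx5 line. Every rescue and knockdown library lay below every control library, and the rescue and knockdown libraries overlapped. Knockdown was 27.9 ± 4.79% of the control mean (SD, n = 4), a log2 difference of -1.86 (SE 0.10) or 3.62-fold lower. Only 2 of 9237 genes had a lower value in that comparison; since this is the value Gnai2 was chosen on, the rank is a description.

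Nuclei and cytoplasm gave the same picture at different depth. In nuclei Gnai2 had between 59.5 and 77.3 CPM in rescue, 49.0 and 69.1 CPM in knockdown and 122 and 163 CPM in control libraries, and knockdown was 42.5 ± 6.45% of the control mean, a log2 difference of -1.20 (SE 0.13). In cytoplasm it had between 83.9 and 97.7 CPM in rescue, 57.9 and 85.9 CPM in knockdown and 255 and 269 CPM in control libraries, and knockdown was 27.6 ± 4.37% of the control mean, a log2 difference of -1.90 (SE 0.09). No rescue or knockdown library reached a control library in either fraction. The fall was also seen in each line, with log2 differences in total lysate of -1.80 (SE 0.14) in the mEx5 line and -1.91 (SE 0.14) in the pEx5 line.

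**Figure D2:**
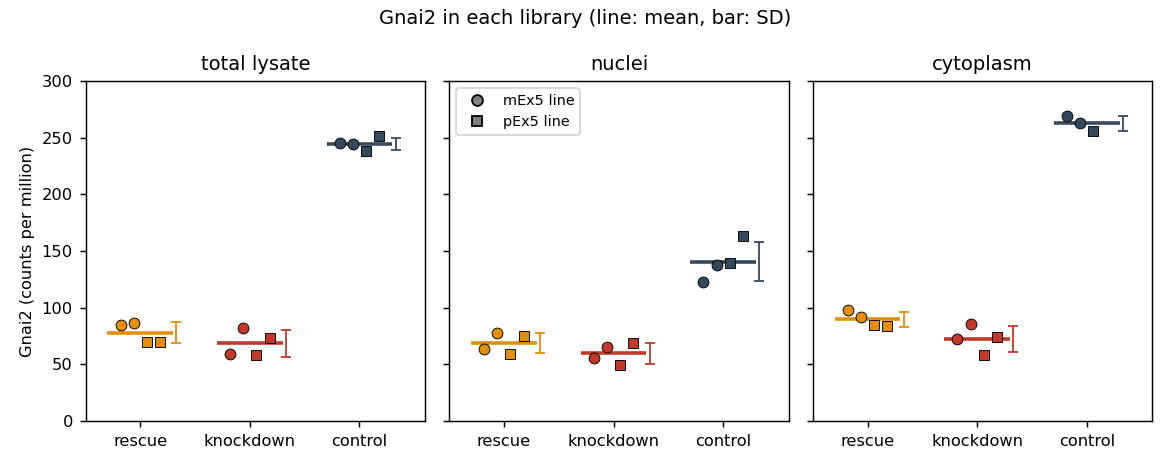
Gnai2 in CPM in each library of total lysate, nuclei and cytoplasm, for rescue, knockdown and control from left to right; circles are mEx5 and squares pEx5 libraries, the horizontal line is the mean and the bar the SD. Control libraries lie at 238 to 251 CPM in total lysate, 122 to 163 CPM in nuclei and 255 to 269 CPM in cytoplasm, and all rescue and knockdown libraries lie under 98 CPM.

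Whether the inserted Chtop cDNA brought Gnai2 back was tested by rescue against knockdown, over both lines. Gnai2 averaged 77.8 ± 9.13 CPM in rescue and 68.4 ± 11.7 CPM in knockdown lysates (SD, n = 4 each), a log2 difference of 0.17 (SE 0.09, 95% interval -0.04 to 0.38, adjusted p = 0.705, edgeR quasi-likelihood test). In nuclei the difference was 0.17 (SE 0.13, 95% interval -0.12 to 0.47, adjusted p = 0.748, edgeR). In cytoplasm it was 0.30 (SE 0.08, 95% interval 0.12 to 0.48, adjusted p = 0.506, edgeR), and without replicate 2 of the pEx5 knockdown it was 0.39 with an adjusted p of 0.0053. The upper end of the interval in total lysate, 0.38, stands beside a knockdown difference of -1.86. These tests share the knockdown libraries on which Gnai2 was chosen. Chtop itself rose in the same comparison by a log2 difference of 3.07 (SE 0.12, adjusted p = 1.6e-06, edgeR) in total lysate.

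Set against control, rescue libraries kept low Gnai2. Rescue lysates held 31.8 ± 3.73% of the control mean, nuclei 49.1 ± 6.16% and cytoplasm 34.1 ± 2.51% (SD, n = 4 each). The log2 differences of rescue against control were -1.68 (SE 0.10, adjusted p = 8.3e-06) in total lysate, -1.02 (SE 0.13, adjusted p = 0.00105) in nuclei and -1.60 (SE 0.09, adjusted p = 1.5e-06) in cytoplasm by edgeR. The control libraries are shared with the knockdown comparison on which Gnai2 was chosen, so these p-values are not independent of that choice. No member passed the test of rescue against knockdown: 0 of 9 were called in total lysate, where 0.0217% of all genes tested passed, 0 of 9 in nuclei, against 0.0108% of all genes, and 0 of 9 in cytoplasm, against 0.0433% of all genes. At an unadjusted p under 0.05 the edgeR counts were 1, 0 and 2 of the 9 members in these fractions. Over all genes these edgeR counts were 660 of 9237, 771 of 9239 and 886 of 9238. DESeq2 and the fit with a replicate block called 0 members in each fraction. Over all genes the block fit called 170 in total lysate, 632 in nuclei and 7 in cytoplasm, and DESeq2 called 22, 79 and 21.

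**Figure D3:**
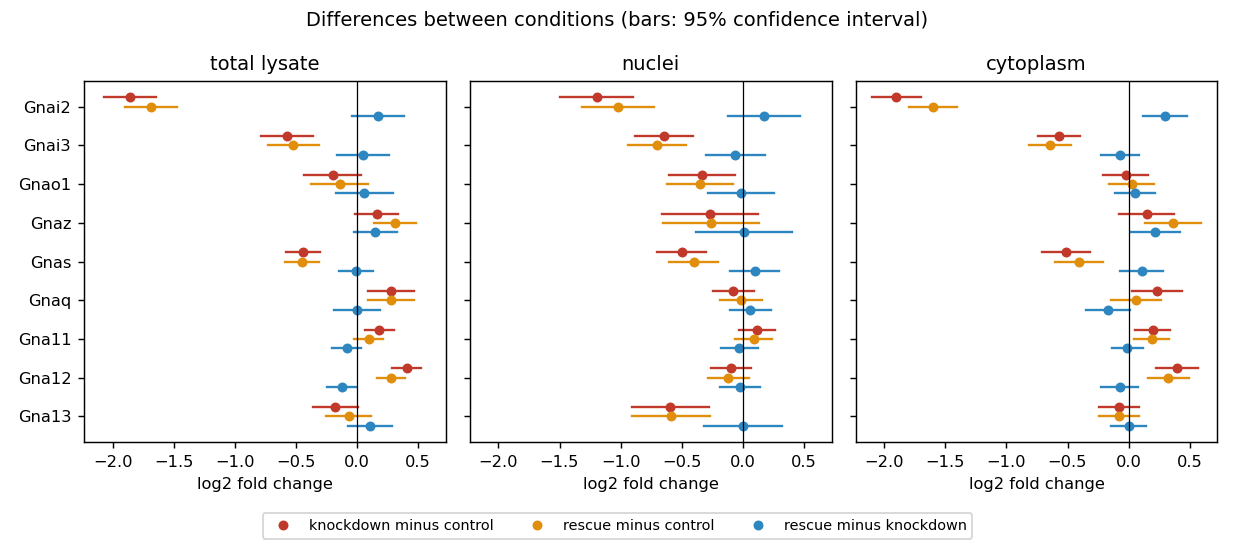
Log2 fold change of 9 alpha subunit mRNAs in total lysate, nuclei and cytoplasm for knockdown minus control, rescue minus control and rescue minus knockdown, with 95% confidence intervals from edgeR. Gnai2 lies at -1.86, -1.20 and -1.90 in knockdown minus control in the 3 fractions and stays below -1 in rescue minus control, while every rescue minus knockdown point lies between -0.2 and 0.3.

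The relatives were then examined for a rise where Gnai2 fell. In total lysate 6 of 9 counted members passed in knockdown against control, 3 higher and 3 lower, Gnai2 among them, where 43.9% of all genes tested passed (21.4% higher and 22.6% lower); the members were chosen with this contrast known, so nothing is read from that count. In nuclei 4 of 9 passed, all lower, against 31.4% of all genes (16% lower). In cytoplasm 5 of 9 passed, 2 higher and 3 lower, against 40.7% of all genes (19.8% higher and 20.9% lower). Gnai2 is among the lower members in both fractions, and nothing is read from these counts either. With a replicate block 9 of 9 passed in total lysate, 6 of 9 in nuclei, where Gnao1 and Gnaz were added, and 6 of 9 in cytoplasm. The block counts hold Gnai2 as well and are likewise a description. Over all genes that fit called 5806 of 9237 in total lysate, 5123 of 9239 in nuclei and 4569 of 9238 in cytoplasm. Over all genes the cytoplasmic calls were 48.7% higher with the main scaling and 59.5% with library totals alone. Gnai3, the other Gi subunit that these cells use, fell too. It had 65.4, 70.2, 48.0 and 62.5 CPM in rescue, 51.7, 68.1, 54.2 and 60.7 CPM in knockdown and 83.9, 92.5, 78.3 and 90.4 CPM in control lysates (mEx5 replicates first, then pEx5). All rescue and knockdown libraries lay below all control libraries. The knockdown fall of Gnai3 was -0.57 on the log2 scale (SE 0.09, adjusted p = 0.0011, edgeR) in total lysate, -0.64 (SE 0.11, adjusted p = 0.00168) in nuclei and -0.57 (SE 0.08, adjusted p = 0.000218) in cytoplasm. In rescue against control it was -0.52 (SE 0.09), -0.70 (SE 0.11) and -0.64 (SE 0.08) in the same fractions.

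Gnao1, the neuronal Go subunit, had 215, 242, 177 and 238 CPM in rescue, 173, 232, 191 and 233 CPM in knockdown and 215, 240.2, 235 and 253 CPM in control lysates in the same order of libraries. The groups overlapped, and the knockdown difference of -0.20 (SE 0.11, 95% interval -0.44 to 0.03) did not pass in total lysate (adjusted p = 0.147, edgeR), while with a replicate block it did (adjusted p = 0.00338, edgeR). In nuclei Gnao1 averaged 302 ± 36.6 CPM in rescue, 298 ± 28.1 CPM in knockdown and 386 ± 39.2 CPM in control (SD, n = 4 each). All knockdown nuclei lay below all control nuclei, the difference was -0.34 (SE 0.12), and it did not pass (adjusted p = 0.0582, edgeR). It passed with a replicate block (adjusted p = 9.2e-05), with DESeq2 (adjusted p = 0.0282), with library totals alone (adjusted p = 0.0400, edgeR) and in 3 of 12 fits that left out 1 library (replicate 1 of the pEx5 control, or either pEx5 rescue). In cytoplasm the knockdown difference was -0.03 (SE 0.08).

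Gnaz, which encodes Gz, had 65.9, 66.9, 64.3 and 75.0 CPM in rescue, 50.9, 61.7, 58.5 and 73.2 CPM in knockdown and 50.4, 48.8, 58.3 and 58.9 CPM in control lysates. All rescue libraries lay above all control libraries, and the knockdown libraries overlapped both. Its knockdown difference of 0.16 (SE 0.08) did not pass (adjusted p = 0.125, edgeR; 0.0335 with a replicate block). Rescue against control passed in total lysate at 0.31 (SE 0.08, adjusted p = 0.0124) and in cytoplasm at 0.36 (SE 0.10, adjusted p = 0.0181, edgeR). The cytoplasmic call was lost without replicate 1 of the mEx5 control, the mEx5 rescue or the pEx5 rescue. In nuclei the knockdown difference was -0.27 (SE 0.18, adjusted p = 0.274, edgeR; 0.00163 with a replicate block).

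Summed per length, the mRNAs of the Gi, Go and Gz class were lower in knockdown than in control lysates, with and without Gnai2. The 5 genes of the class summed to 164 ± 14.9 RPKM in rescue, 154 ± 18.6 RPKM in knockdown and 283 ± 8.49 RPKM in control lysates (SD, n = 4 each). Without Gnai2 the class summed to 123 ± 12.2 RPKM in rescue, 118 ± 13.4 RPKM in knockdown and 146 ± 6.94 RPKM in control lysates. Of the summed RPKM of all members but Gnai2, this was 9.76 ± 1.21% in rescue, 9.20 ± 0.971% in knockdown and 8.59 ± 1.11% in control lysates. The ranges of these shares overlapped, and most of that sum is Gnas, which fell too. Gnai2 supplied 24.9 ± 2.27% of the class in rescue, 23.5 ± 1.24% in knockdown and 48.3 ± 1.21% in control lysates. The mean of Gnai2 differed by -100.4 RPKM between knockdown and control, and the largest gain of any other member was 11.3 RPKM for Gna12. RPKM and CPM are scaled differently, and rises were smaller and falls larger in RPKM. Gna12, for example, averaged 52.9 RPKM in knockdown and 41.6 RPKM in control lysates, but 171 and 128 CPM. No test was run on these sums, since the members were chosen with the results known.

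Gnas, the alpha subunit that drives adenylyl cyclase, fell in every fraction. It had 1471.0, 1452, 1571 and 1611 CPM in rescue, 1424, 1448, 1536 and 1711 CPM in knockdown and 1808, 1743, 2324 and 2416 CPM in control lysates (mEx5 replicates first, then pEx5). All rescue and knockdown libraries lay below all control libraries, and the pEx5 controls were above the mEx5 controls. The log2 difference of knockdown against control was -0.44 (SE 0.06, adjusted p = 0.000433) in total lysate, -0.50 (SE 0.09, adjusted p = 0.00263) in nuclei and -0.51 (SE 0.09, adjusted p = 0.000972) in cytoplasm by edgeR. In rescue against control it was -0.45 (SE 0.06), -0.40 (SE 0.09) and -0.41 (SE 0.09) in these fractions, and the nuclear call was lost without replicate 2 of the mEx5 rescue. The share of Gnas in the summed RPKM of the 10 genes was 76.1 ± 2.11% in rescue, 76.7 ± 1.58% in knockdown and 76.9 ± 2.70% in control lysates. Since Gnas makes up most of that sum, the sum largely follows Gnas, and the similar share is not a separate result. The Gnas locus is imprinted and gives several transcripts, of which 24 are annotated in GENCODE M21; the gene-level counts do not separate them.

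Gna12, which encodes the G12 subunit, rose in total lysate and cytoplasm. It had 149.7, 171, 148 and 162 CPM in rescue, 161, 169, 179 and 175 CPM in knockdown and 123, 121, 132 and 135 CPM in control lysates. All rescue and knockdown libraries lay above all control libraries. Knockdown against control gave 0.40 (SE 0.05, adjusted p = 0.000277) in total lysate and 0.40 (SE 0.08, adjusted p = 0.00206) in cytoplasm by edgeR. In nuclei it had 105 to 116 CPM in knockdown and 109.8 to 136 CPM in control, a difference of -0.10 (SE 0.07, adjusted p = 0.352, edgeR). In rescue against control it was 0.28 (SE 0.05, adjusted p = 0.00286) in total lysate and 0.33 (SE 0.08, adjusted p = 0.00753) in cytoplasm by edgeR.

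Gnaq and Gna11, the subunits that activate phospholipase C beta, rose slightly in total lysate, and Gna11 also in cytoplasm. Gnaq had 46.1, 45.1, 40.2 and 38.4 CPM in rescue, 43.9, 41.8, 45.0 and 37.6 CPM in knockdown and 33.5, 33.1, 37.5 and 33.3 CPM in control lysates. The lowest knockdown library stood just above the highest control library. The knockdown difference of Gnaq was 0.28 (SE 0.08, adjusted p = 0.0216, edgeR) in total lysate, and the call was lost in 5 of 12 fits that left out 1 library, those without either mEx5 control, replicate 1 of the mEx5 or pEx5 knockdown, or replicate 2 of the pEx5 control, with values of 0.20 to 0.29. In nuclei Gnaq averaged 78.6 ± 13.02 CPM in knockdown and 85.2 ± 14.6 CPM in control (SD, n = 4 each), a difference of -0.08 (SE 0.08, adjusted p = 0.474, edgeR). In cytoplasm its difference was 0.23 (SE 0.09) and did not pass (adjusted p = 0.0643, edgeR; 0.0129 with a replicate block). Gna11 had 123, 140.4, 116 and 123 CPM in rescue, 124, 140.2, 131 and 133 CPM in knockdown and 117, 116, 115 and 113 CPM in control lysates. All knockdown libraries lay above all control libraries. Its knockdown difference was 0.18 (SE 0.05, adjusted p = 0.0198, edgeR) in total lysate and 0.20 (SE 0.07, adjusted p = 0.0306, edgeR) in cytoplasm. In nuclei it was 0.12 (SE 0.07) and did not pass (adjusted p = 0.226, edgeR). The first call was lost in 4 of 12 fits that left out 1 library (replicate 2 of the mEx5 control, mEx5 knockdown or pEx5 control, or replicate 1 of the pEx5 knockdown), with values of 0.16 to 0.18, and the second in 5 of 10 (either mEx5 control, either mEx5 knockdown, or replicate 2 of the pEx5 knockdown), with values of 0.18 to 0.21. Rescue against control called Gnaq in total lysate (0.28, SE 0.08, adjusted p = 0.0253) and Gna11 in cytoplasm (0.19, SE 0.07, adjusted p = 0.0427) by edgeR. The Gnaq call was lost in 5 of 12 such fits (without either mEx5 control, replicate 1 of the mEx5 or pEx5 rescue, or replicate 2 of the pEx5 control), with values of 0.23 to 0.29. The Gna11 call was lost in 8 of 10, those that left out any mEx5 library or either pEx5 rescue, with values of 0.17 to 0.21.

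Gna13, which shares a class with Gna12, fell in nuclei. There it had 93.8, 99.2, 81.6 and 110.0 CPM in rescue, 79.5, 100.1, 80.6 and 115 CPM in knockdown and 149.0, 149.0, 125 and 157 CPM in control. All rescue and knockdown nuclei lay below all control nuclei, and the knockdown difference was -0.59 (SE 0.14, adjusted p = 0.0109, edgeR). In total lysate it was -0.18 (SE 0.08, adjusted p = 0.102, edgeR; 0.0113 with a replicate block) and in cytoplasm -0.08 (SE 0.07, adjusted p = 0.412, edgeR). The rescue difference against control in nuclei was -0.59 (SE 0.14, adjusted p = 0.0159, edgeR), and was not called without replicate 1 of the mEx5 rescue or replicate 2 of the pEx5 control.

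In rescue against control 6 of 9 members were called in total lysate, against 37.3% of all genes tested, with 3 higher (18.3% of all genes) and 3 lower (19%). In nuclei 4 of 9 were called, all lower, against 23.7% of all genes (12.2% lower). With a replicate block 7 of 9 were called in total lysate, where Gnao1 was added (adjusted p = 0.0315, edgeR). In nuclei that fit called 6 of 9, where Gnao1 (adjusted p = 8e-05) and Gnaz (adjusted p = 0.00267, edgeR) were added. DESeq2 called 5 of 9 in nuclei. Over all genes the block fit called 5352 of 9237 in total lysate and 4604 of 9239 in nuclei. DESeq2 called 2659 of 9239 in nuclei. In cytoplasm 6 of 9 were called, 3 higher and 3 lower, against 35.7% of all genes (17.2% higher and 18.4% lower). Over all genes 48.3% of the cytoplasmic calls were higher with the main scaling and 61.8% with library totals alone. These comparisons share their control libraries with knockdown against control, so similar values in the 2 comparisons are partly the same data.

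The place of each mRNA within the cell was read from control nuclei against control cytoplasm. Each fraction was scaled on its own total, so the ratio ranks genes and does not give the share of molecules in the nucleus. Of 9 members, 7 passed, 3 higher and 4 lower in nuclei, against 69.9% of all genes tested (33.8% higher and 36.1% lower). Gnaq was higher in nuclei at 1.06 on the log2 scale (SE 0.09, adjusted p = 8e-08), Gnao1 at 0.55 (SE 0.12, adjusted p = 0.0006) and Gna11 at 0.17 (SE 0.07, adjusted p = 0.0312, edgeR). Gnai3 was lower in nuclei at -0.90 (SE 0.10, adjusted p = 1e-06), Gnai2 at -0.89 (SE 0.13, adjusted p = 1.5e-05), Gnas at -0.32 (SE 0.09, adjusted p = 0.00553) and Gna12 at -0.24 (SE 0.08, adjusted p = 0.0114, edgeR). Gna13 at -0.29 (SE 0.13, adjusted p = 0.0570) and Gnaz at -0.02 (SE 0.17, adjusted p = 0.924, edgeR) did not pass; with a replicate block Gna13 did (adjusted p = 0.0130). The call of Gna12 was lost without replicate 1 of the pEx5 control nuclei, and that of Gna11 without replicate 1 of either line's control nuclei or either mEx5 control cytoplasm.

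The change of this ratio on knockdown passed the test for Gnai2 and Gna12, in opposite directions. Of 9 members, 2 passed the test of the change in ratio, where 5.14% of all genes tested passed (3.83% higher and 1.31% lower). Gnai2 is among them and was chosen on these knockdown and control libraries. Its change is therefore a description, and nothing is read from the count. For Gnai2 the nuclear to cytoplasmic ratio changed by 0.72 on the log2 scale (SE 0.17, 95% interval 0.35 to 1.09, adjusted p = 0.0264, edgeR), that is, the knockdown fall was smaller in nuclei (-1.20) than in cytoplasm (-1.90). This test reuses the knockdown libraries on which Gnai2 was chosen, and the call was lost in 7 of 22 fits that left out 1 library, with adjusted p up to 0.0849 and values of 0.57 to 0.83 over all 22. Those 7 left out replicate 1 of the mEx5 or pEx5 control nuclei, replicate 2 of the mEx5 or pEx5 knockdown nuclei, replicate 1 of the mEx5 control cytoplasm, or replicate 1 of the mEx5 or pEx5 knockdown cytoplasm. For Gna12 the ratio changed by -0.48 (SE 0.10, 95% interval -0.70 to -0.26, adjusted p = 0.0161, edgeR), with the rise in cytoplasm and not in nuclei, and the call held in all 22 such fits. Gna13 changed by -0.50 (SE 0.17, adjusted p = 0.111, edgeR; 0.0407 with a replicate block), so its nuclear fall was not shown to differ from the cytoplasmic value without the block.

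Scaling each library by its total alone gave 0.62 for Gnai2 and -0.58 for Gna12 with both still called, while over all genes the calls of this change in ratio went to 206 higher and 411 lower, against 354 higher and 121 lower with the main scaling. In the authors' deposited table the same change in ratio was 0.87 for Gnai2 and -0.55 for Gna12. For rescue against knockdown 0 of 9 members passed the test of the change in ratio (0.0216% of all genes tested passed), 0 had an unadjusted p under 0.05 by edgeR and DESeq2 called 0. Gnai2 stood at -0.12 (SE 0.17, adjusted p = 0.999) there.

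**Figure D4:**
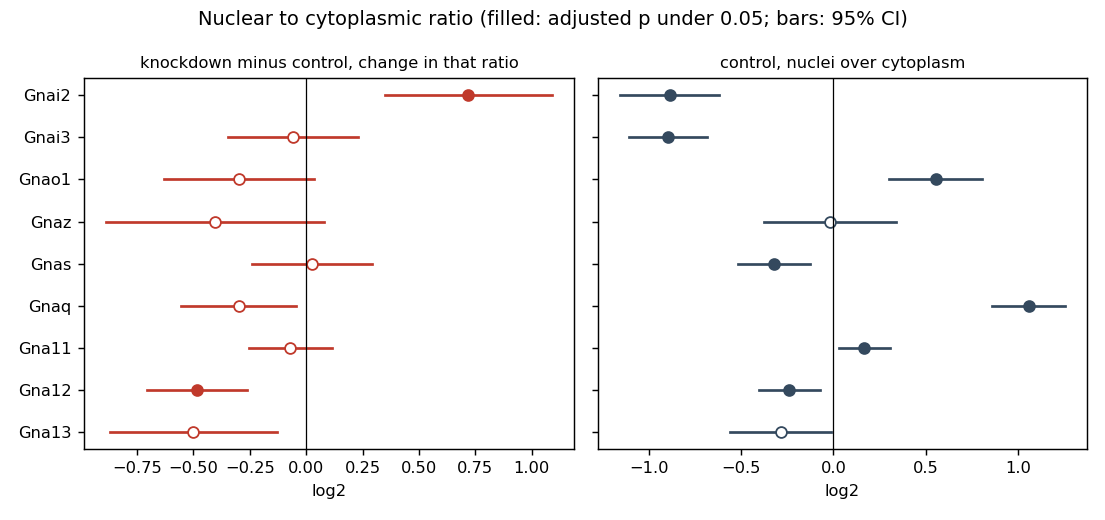
Log2 change of the nuclear to cytoplasmic ratio on knockdown against control (left) and log2 ratio of nuclei over cytoplasm in control cells (right) for 9 alpha subunit mRNAs, with 95% confidence intervals from edgeR and filled points where the adjusted p is under 0.05. Gnai2 lies at 0.72 and Gna12 at -0.48 on the left, and on the right the members spread from -0.90 for Gnai3 to 1.06 for Gnaq.

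The authors' deposited table also holds a mark for overlap with Chtop iCLIP, a method that crosslinks a protein to RNA in cells; the table gives neither the source of the iCLIP data nor the rule for the mark. The mark was set for Gnai3, Gnao1, Gnaz, Gnaq, Gna11 and Gna13 and not for Gnai2, Gnas or Gna12. That is 6 of 9 members, or 66.7%, against 48.5% of all 9239 genes.

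The lines were compared for the size of the response. For knockdown the difference between lines (mEx5 minus pEx5) was called for 0 of 9 members in total lysate, nuclei and cytoplasm, 0 members had an unadjusted p under 0.05 by edgeR and DESeq2 called 0 of them; the percentage called among all genes was 0.0 in each of these tests. The same counts held for the difference between lines in the response to rescue. For Gnai2 the line difference of knockdown in total lysate was 0.10 (SE 0.19, 95% interval -0.31 to 0.52) and that of rescue 0.16 (SE 0.19, 95% interval -0.26 to 0.58), so line differences within these bounds could not be detected. Rescue without exon 5 changed Gnai2 by 0.25 (SE 0.13) and rescue with exon 5 by 0.09 (SE 0.13) relative to knockdown of the same line. Control levels differed between lines for some members: Gnas averaged 1776 ± 46.4 CPM in mEx5 and 2370 ± 64.9 CPM in pEx5 control lysates, and nuclear Gnaq 97.7 ± 2.48 CPM in mEx5 and 72.6 ± 0.899 CPM in pEx5 controls (SD, n = 2 each). Gnai2 controls averaged 245 ± 0.791 CPM in mEx5 and 245 ± 9.18 CPM in pEx5 lysates.

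The other genes of the pathway gave more falls than rises. Of 44 with counts, 4 were higher and 22 lower in knockdown against control lysates, where 21.4% of all genes tested were higher and 22.6% lower, and their median log2 difference was -0.26 against 0.01 over all genes. With a replicate block 35 of the 44 were called, against 26 without it. Over all genes the block fit called 5806 of 9237, against 4057 without it. The lists were drawn up with earlier results of these data known, so the counts describe these genes only. None of the 44 was called in rescue against knockdown lysates by edgeR or DESeq2, and 1 was with a replicate block. At an unadjusted p under 0.05 by edgeR there were 2 of the 44, against 660 of 9237 over all genes. The block fit called 170 of all genes there.

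Protein kinase A, the enzyme that cAMP activates, had the largest fall of these genes. Of its 6 subunit genes 4 were lower in knockdown lysates and 0 higher. The catalytic subunit Prkaca fell by 1.35 on the log2 scale (SE 0.07, adjusted p = 3.6e-06), the regulatory subunits Prkar1b by 0.86 (SE 0.11, adjusted p = 0.000211) and Prkar1a by 0.85 (SE 0.08, adjusted p = 4.1e-05), and the catalytic Prkacb by 0.32 (SE 0.07, adjusted p = 0.00416, edgeR). Prkar2a at 0.12 (SE 0.07) and Prkar2b at -0.02 (SE 0.08) did not pass. In rescue against control lysates the same 4 genes stayed lower, Prkaca at -1.24 (SE 0.07) and Prkar1a at -0.73 (SE 0.08).

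Among the partners of the alpha subunit, 3 of 4 counted beta subunits were lower and 0 higher: Gnb4 at -0.45 (SE 0.10), Gnb1, the main beta of many cells, at -0.38 (SE 0.06) and Gnb5 at -0.32 (SE 0.09), while Gnb2 at -0.12 (SE 0.07) did not pass. Of 5 counted gamma subunits 2 were lower and 0 higher, Gng8 at -0.69 (SE 0.10) and Gng2 at -0.40 (SE 0.14). RGS proteins, which speed GTP hydrolysis by alpha subunits, were lower in 5 of 6 counted genes, among them Rgs17 at -0.82 (SE 0.12), Rgs3 at -0.55 (SE 0.09) and Rgs7 at -0.47 (SE 0.07). Of 9 counted chaperones and partners of GDP-bound alpha subunits, 4 were lower and 1 higher, with Gpsm2 at -0.67 (SE 0.10), Nucb2 at -0.44 (SE 0.08) and Rap1gap at 0.48 (SE 0.13).

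Upstream, 2 of 5 counted receptors that couple to Gi were lower and 1 higher: the thrombin receptor F2r at -0.63 (SE 0.08), the GABA-B receptor subunit Gabbr1 at -0.57 (SE 0.12) and the nociceptin receptor Oprl1 at 0.41 (SE 0.12). Of 5 receptor kinases and arrestins 1 was lower, Arrb1 at -0.39 (SE 0.14). Downstream, of 2 phospholipase C beta genes Plcb4 was higher at 0.45 (SE 0.07), and Plcb3 at -0.28 (SE 0.15) did not pass. Of 2 cAMP phosphodiesterases Pde7a was higher at 0.37 (SE 0.06) and Pde4b lower at -0.31 (SE 0.09). The 1 counted adenylyl cyclase, Adcy6, stood at -0.15 (SE 0.15) and did not pass. With a replicate block Adcy6, Gnb2 and Plcb3 were called lower as well, so all 4 counted beta subunits were lower. Gnb3 (mean 10.5 RPKM) had no count row and was not in that fit. That fit also called 3 gamma subunits lower and 5 chaperones and partners lower. It called 2 receptors higher, and 2 receptor kinases and arrestins higher and 2 lower. Over all genes the block fit called 2902 of 9237 higher and 2904 lower.

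**Figure D5:**
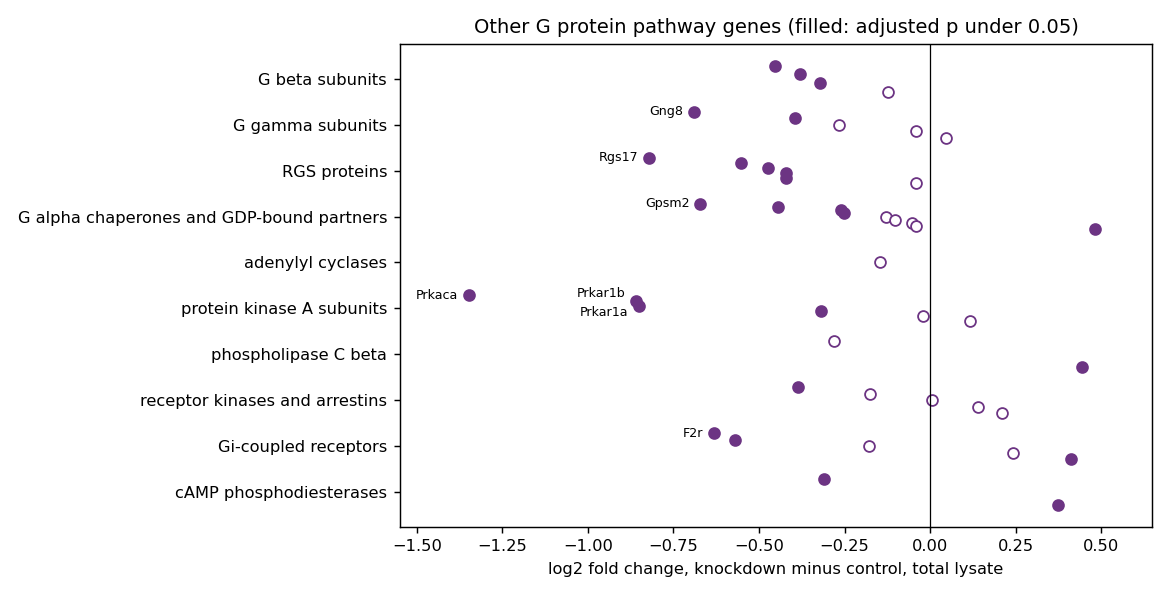
Log2 fold change of 44 other G protein pathway genes in knockdown minus control lysates, grouped by list (Rgs12 stands in the RGS and the partner list), with 1 point per gene and filled points where the adjusted p by edgeR is under 0.05. Prkaca at -1.35 is farthest from 0, and most filled points lie left of 0.

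The genes whose level followed Gnai2 most closely over the 35 libraries, after the mean of each fraction was taken out, were Txndc5 (r = 0.984), Prkaca (r = 0.982), Nln (r = 0.980), Tcaf1 (r = 0.976) and Rnf14 (r = 0.976), of 9147 genes with at least 5 CPM. These are the 5 highest Pearson correlations of TMM-scaled log2 CPM; the points share libraries, lines and conditions, so the values describe the likeness only. In knockdown lysates these 5 genes had log2 differences between -1.35 (Prkaca) and -0.82 (Nln). Among the members, r with Gnai2 was 0.886 for Gnai3 and 0.745 for Gnas, and -0.728 for Gna11 and -0.667 for Gna12.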

How the data were processed

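Libraries, groups and replicates were taken from the labels. Poly(A) RNA was sequenced, per the labels' protocols. The submitters' processing notes name Salmon 0.14.1, the build mm10 and DESeq2, with no roles given. The deposited counts per gene (9239 genes) were whole numbers, and the deposited RPKM values covered 54393 genes, with 1 column of no labelled sample left unused. The authors' deposited log2 ratios of nuclei over cytoplasm and their iCLIP marks were quoted only where named.

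The 10 members and all gene lists were chosen with earlier results of these data known. Counts were tested with edgeR 4.0.16 (R 4.3.3; TMM scaling, filterByExpr, quasi-likelihood fit of group means per fraction, or of nuclei and cytoplasm together), with Benjamini-Hochberg adjustment over all genes and a threshold of 0.05; filtering removed 2 genes in total lysate, 0 in nuclei and 1 in cytoplasm. Pooled contrasts weigh both lines equally. RPKM genes outside the count table were fitted with limma 3.58.1 on log2(RPKM + 0.5), for genes averaging at least 0.1 RPKM; Gnai1 did not reach that. Alternatives were DESeq2 1.42.0, other scaling, no filter, a replicate or culture block and leaving out each library. Replicates of equal number deviated together in total lysate (correlations 0.349 to 0.794, 15 pairs) and nuclei (0.524 to 0.720, 15 pairs). This was not so in every cytoplasmic pair (0.0585 to 0.650, 10 pairs). The main fits did not use this pairing, which entered only through the replicate block. Values given without the block are therefore unpaired. The labels do not say whether biological replicates were separate cultures, so p-values measure the spread between these libraries. On simulated counts for total lysate over 9237 genes, the edgeR step recovered 71.2% of 104 genes changed by 0.5 on the log2 scale. It recovered 93.8% of 96 genes changed by 1. The simulation held no shared deviation of replicates and changed few genes, while 4057 were called in knockdown against control lysates. Recovery in the data can therefore differ. Named genes were the members, up to 3 called genes per list with the largest change at 5 CPM or more, every gene of lists of up to 6 genes, and the 5 genes most like Gnai2 (predicted-gene symbols passed over). Intervals are 95%. Some genes of the pathway lists are not reported here.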

Additional observations from a re-analysis of the deposited data

Results flagged for a closer look

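Among 72 sets of 4 libraries (1 member, fraction and condition each, both lines together), 2 held a library that stood apart by Dixon's criterion at its 95% level; chance marks about 1 in 20 sets. Gnaq had 37.5 CPM in replicate 1 of the pEx5 control lysates, against 33.1 to 33.5 CPM in the other 3 control lysates. Gna12 had 207 CPM in replicate 1 of the pEx5 rescue cytoplasm, against 179 to 182 CPM in the other 3 rescue libraries of that fraction. The knockdown response of 2 members differed between nuclei and cytoplasm: for Gnai2 the log2 difference was 0.72 higher in nuclei, and for Gna12 the nuclear to cytoplasmic ratio changed by -0.48. For Gnai2 this is a description, since it was chosen on these libraries.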

How the results depend on the processing

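No member value that was called changed sign under any setting tried. Leaving out 1 library at a time gave 1934 member values that kept their side of the threshold, 45 that lost it and 16 that gained it, and 156 that changed sign while called neither with nor without the library. The pairing of replicate numbers entered as a replicate block. With it all 9 members passed in knockdown against control lysates, against 6 without it. Gnai2, chosen on this contrast, is in both counts. Over all genes 5806 of 9237 passed there with it and 4057 without it. The genes called by the block fit were 170 for rescue against knockdown lysates (2 without it), 5352 for rescue against control lysates (3442), 5123 for knockdown against control nuclei (2903), 632 for rescue against knockdown nuclei (1), 4604 for rescue against control nuclei (2191), 159 for the line difference of knockdown in nuclei (0), 7 for rescue against knockdown cytoplasm (4), 1188 for the change in nuclear to cytoplasmic ratio on knockdown (475) and 4 for that of rescue against knockdown (2). DESeq2 called 22, 79 and 21 genes in rescue against knockdown in total lysate, nuclei and cytoplasm, 1 in the line difference of knockdown in nuclei, 7 in that of rescue in cytoplasm, and 792 and 4 in the changes in ratio for knockdown and rescue. The cause of these differences in counts was not tested.

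Leaving out 1 library at a time gave 1 to 2 genes for rescue against knockdown lysates, 1256 to 2069 for rescue against control nuclei, and 1 to 1305 for rescue against knockdown cytoplasm, with 0 to 1 members and Gnai2 at 0.22 to 0.39. The line difference in cytoplasm gave 0 to 15 genes for knockdown and 0 to 274 for rescue. The 1305, 15 and 274 all came without replicate 2 of the pEx5 knockdown cytoplasm. For the change in ratio on knockdown it gave 172 to 544 genes, 1 to 2 members and Gnai2 at 0.57 to 0.83, and for rescue against knockdown 0 to 3 genes and Gnai2 at -0.24 to 0.014. Leaving out the only cytoplasmic pEx5 control gives no value pooled over lines. A culture block, chosen after seeing the data, gave 0.78 for Gnai2 in the change in ratio on knockdown. With 2 replicates a group, differences of 0.5 on the log2 scale were missed in part in the simulated counts. Those counts had far fewer changed genes than were called in the data, so the part missed in the data is not known.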
